A study of Drosophila melanogaster with 73 samples.

Results

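Obp99b and the related odorant-binding protein genes Obp99a, Obp99c, Obp44a and Obp56a were followed in guts and fat bodies of adult female flies in which combinations of the transcription factors Foxo, Aop and Pnt had been induced. The genes were taken from a list of 6, matched by FlyBase identifier to the symbols of the annotation. Of these, 5 were found in both count tables, among 11419 genes with a row in either, and Obp28a was not analysed here. The members were selected on measured values, namely the counts of Obp99b in these same induced and uninduced libraries, with the others added as its relatives. The levels of Obp99b after induction are therefore a description and carry no test. Tests are given for the other Obp genes only. In all, 21 genes with an Obp symbol had a row in either table, 14 of them among gut and 20 among fat body genes, and the other 20 served as the family against which Obp99b was set.

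All flies were mated females of the outbred Dahomey stock, bore the w1118 mutation and carried the S106 GeneSwitch driver, which is active in gut and fat body once flies are fed the steroid RU486. On top of the driver they carried UAS transgenes for Foxo, for AopACT, for PntP1, for each pair of these or for all 3, which gave 7 genotypes. Foxo is the forkhead factor restrained by insulin signalling. Aop and Pnt are ETS factors that respectively repress and activate transcription, and the forms used here, AopACT and PntP1, are always active. After 48 h with males the females received food with 200 µM RU486 (induced) or carrier alone (uninduced) for 6 days. Polyadenylated RNA was then sequenced from pools of organs of 12 flies, the fat body being what remained of the abdomen once gut and reproductive organs were taken out. There were 36 gut libraries (17 induced and 19 uninduced) and 34 fat body libraries (18 induced and 16 uninduced), in groups of 2 or 3 apart from the gut Foxo+PntP1 uninduced group, which held 1. Flies fed RU486 without a UAS transgene were not analysed here, so feeding of RU486 and expression of a transgene cannot be told apart within a genotype. The labels do not say that the pools came from separate cultures, and p-values measure the spread between pools.

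Odorant-binding proteins are small secreted proteins that carry hydrophobic ligands. They are best known from the fluid around olfactory and gustatory neurons, where they carry odorants and tastants, but many are made in tissues with no chemosensory role, the fat body among them. The fat body is the fly's main organ of storage and of secretion into the haemolymph. Obp99b is also known as tsx, for turn on sex-specificity, and was described from the fat body of male heads.

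The summed count of a library ranged from 1598120 to 6145550 for guts and from 1138812 to 8257766 for fat bodies. Levels are given in CPM, which are counts divided by the library's total after TMM scaling and brought to a common depth. All 8 listed markers of the female fat body, the yolk protein genes among them, were found in both tables, and their summed level was at least 28098 CPM in the fat body and at most 3061 CPM in the gut. The fat body libraries held RNA of other abdominal tissues, since all 6 haemocyte, 5 oenocyte, 6 muscle, 6 neuron and glia and 5 Malpighian tubule markers listed had a row. So did 8 of 9 ovary and follicle cell, 2 of 2 spermatheca and 7 of 7 enterocyte and midgut markers. Between fat body libraries the sums of these 3 lists ran from 23.5 to 5780, 0 to 361 and 22.3 to 1926 CPM, in the same order. In none of these lists did a gene pass for AopACT in the fat body. In 1 gut library of each of 2 groups, all 3 transgenes uninduced and Foxo+PntP1 induced, over 20% of counts were mitochondrial, and pnt went against the label in replicate 1 of the uninduced Foxo+PntP1 fat bodies. In bulk tissue, fewer cells of a type and less RNA per cell cannot be told apart.

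Obp99a, Obp99c and Obp99b lie close together near the end of chromosome 3R (genome release 6). Obp99b (FBgn0039685) spans 29716254 to 29716896 on the minus strand. Obp99c (FBgn0039682) spans 29685736 to 29689311 on the same strand and starts 27.6 kb away. Obp99a (FBgn0039678) spans 29671657 to 29672334 on the plus strand and starts 45.2 kb away. Obp44a (FBgn0033268, from 8134170 to 8135315) and Obp56a (FBgn0034468, from 19697723 to 19698508) lie on chromosome 2R. Obp99c overlaps Gycalpha99B and Obp44a overlaps Pabp2, in each case on the opposite strand, and the sources used here do not name the strand used in counting. These are overlaps of gene spans, and overlap of exons was not examined. Whether these genes share reads with their antisense partners therefore cannot be told. Obp99a, Obp99b and Obp56a overlap no annotated gene.

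Of the Obp genes with a row, Obp99b was among the lowest before induction in both tissues. Obp99c was the highest in both, and Obp99a came next in the fat body. To compare genes, levels were divided by exon length, in CPM per kb. In the 16 uninduced fat body libraries Obp99c stood at 1069 ± 344 CPM per kb (SD) and Obp99a at 273 ± 95.5. They were followed by Obp57c at 106 ± 52.3 and Obp18a at 99.8 ± 24.8, which did not differ from each other beyond their spread. Obp56a stood at 9.59 ± 7.80 and Obp44a, known from glia, at 4.18 ± 3.14, with overlapping spreads. Obp99b stood at 1.55 ± 1.24 CPM per kb, the 16th highest of 20. In the 19 uninduced guts the order was led by Obp99c at 17.1 ± 5.78 CPM per kb, followed by Obp56d at 5.19 ± 6.78, Obp18a at 4.87 ± 2.24, Obp83b at 3.58 ± 3.43 and Obp99a at 3.57 ± 1.88. The last 4 did not differ beyond their spread. Obp99b stood at 0.761 ± 1.86 CPM per kb and was at 0 counts in 13 of the 19 guts. It had 30 counts in the 27 guts without induced AopACT, under 36, the lowest total of any gut gene with a row. Its gut row thus rests on the induced AopACT libraries, and Obp genes as low may have no row. Obp99b was at 0 counts in 3 of the 16 uninduced fat bodies.

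**Figure D1:**
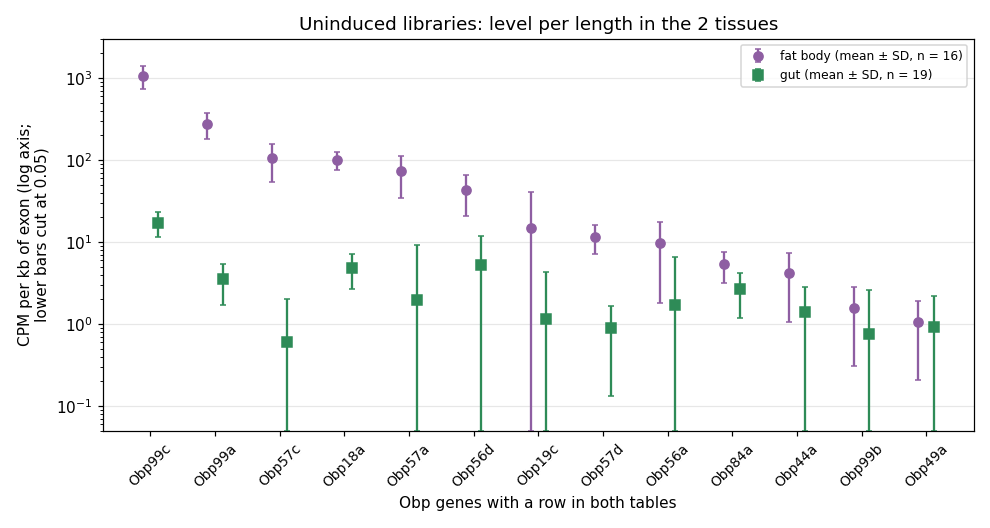
Mean level per length (CPM per kb of exon, log axis) of the 13 Obp genes with a row in both tables, in 16 uninduced fat body (circles) and 19 uninduced gut libraries (squares), with bars of 1 SD that are cut at the foot of the axis. Obp99c and Obp99a lead in the fat body, at 1069 and 273 CPM per kb, and Obp99b is near the foot of both tissues.

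The uninduced tissues were then compared to ask where the family is expressed. Of the 11 Obp genes tested other than Obp99b, 10 were higher in the fat body, while over all genes 73.2% of 9610 passed in either direction and 40.7% were higher in the fat body. Obp99a was higher by 6.00 ± 0.30 (log2 difference ± SE; edgeR adjusted p = 7.8e-15) and Obp99c by 5.68 ± 0.29 (adjusted p = 9.9e-15). The differences were smaller for Obp44a, at 1.24 ± 0.37 (edgeR adjusted p = 0.0050), and larger again for Obp56a, at 4.58 ± 1.01 (adjusted p = 5.5e-04), which was at 0 counts in 15 of the 19 guts. Obp57c had the largest fitted difference, 8.22 ± 0.39, but was at 0 counts in 13 of the 19 guts and did not pass the filter within the gut. Its place in this comparison rests on its fat body counts. At 0 counts in every uninduced gut of PntP1 and of all 3 transgenes, its fitted difference is no bound. Obp56a also had gut groups at 0, and its difference was 2.51 with tissues paired by library number. For Obp19c the difference of 3.53 did not pass (edgeR adjusted p = 1), and its level varied from 0 to 99.6 CPM between uninduced fat bodies. For Obp99b, whose uninduced counts were among the values that chose the members, the difference is a description, 1.74. Its values lay between 0 and 2.61 CPM in the fat body and between 0 and 4.71 CPM in the gut, so the groups overlapped, and without the library fat body Foxo+AopACT+PntP1 uninduced replicate 2 the difference was 1.31.

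Induction was examined next. In the fat body, Obp99b was abundant in all 11 induced libraries that carried AopACT, alone or in combination, and near 0 in the other 23. With AopACT alone it was at 1.59 CPM in each of the 2 uninduced libraries (3 and 4 counts) and at 997 and 2252 CPM in the 2 induced ones (3218 and 8498 counts). With Foxo+AopACT it was at 1.04 and 0.322 CPM before and at 216, 165 and 212 CPM after induction. With AopACT+PntP1 it was at 1.37 and 0.830 CPM before and at 69.2, 112 and 496 CPM after. In these 3 genotypes every induced library was above every uninduced one. The same held with all 3 transgenes, at 0 and 0.391 CPM before and 36.9, 77.0 and 194 CPM after induction. In the genotypes without AopACT the 7 induced fat bodies held Obp99b between 0 and 2.83 CPM, with 13 counts in total, within the range of the 16 uninduced libraries apart from 1 Foxo+PntP1 library. The 5 uninduced counts of PntP1 flies and their 0 induced counts are too few to read a direction.

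**Figure D2:**
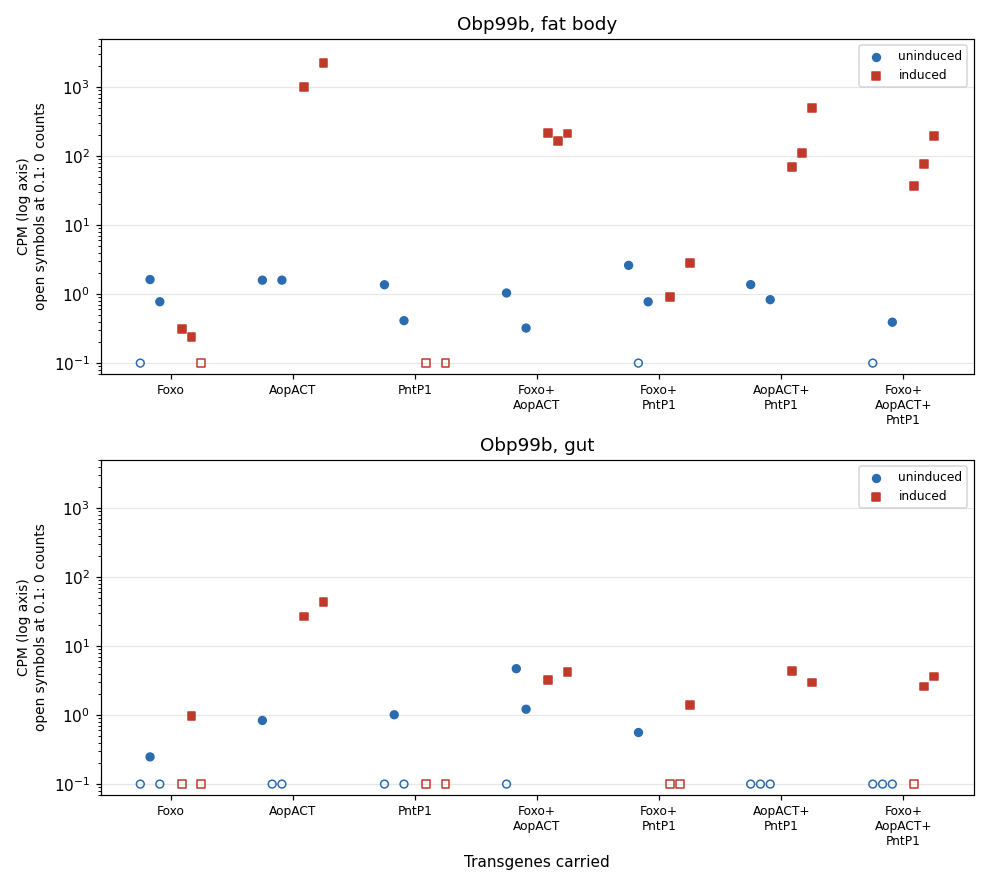
Obp99b in every fat body and gut library (CPM, log axis) by genotype, with circles for uninduced and squares for induced libraries; open symbols at 0.1 are libraries with 0 counts. Induced fat bodies with AopACT lie between 36.9 and 2252 CPM and all others at or below 2.83 CPM, while in the gut the 2 induced AopACT libraries lie at 26.9 and 43.7 CPM and all others at or below 4.71 CPM.

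Summed over libraries, Obp99b had 11716 counts in induced and 7 in uninduced AopACT fat bodies, a ratio of unscaled CPM of 1492 (95% exact interval 724 to 3712). The ratio was 263 (121 to 719) with Foxo+AopACT and 174 (109 to 299.5) with AopACT+PntP1. With all 3 transgenes it was 561 (100.5 to 22188), against 1 uninduced count. These intervals cover counting error only, and all 4 ratios rest on 17 uninduced counts or fewer. On the log2 scale of the edgeR fit the differences were 9.95 for AopACT, 8.10 for Foxo+AopACT, 7.33 for AopACT+PntP1 and 8.75 for all 3 transgenes. Over all 9734 genes tested, 0.411% passed an adjusted p of 0.1 in either direction with AopACT, 0.0308% with Foxo+AopACT, 0.123% with AopACT+PntP1 and 0.0103% with all 3. Without the 7 fat body libraries over 10 CPM of the male RNA roX1 the differences were 10.41, 7.78, 7.25 and 8.88 in the same order. That of AopACT alone then rested on 1 induced and 1 uninduced library.

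The level of Obp99b was then set against the rest of the transcriptome. Per exon length, Obp99b reached 1678 and 3791 CPM per kb in the induced AopACT fat bodies, where Obp99c stood at 425 and 504 and Obp99a at 496 and 665. It ranked 40th and 11th of 10982 genes there. In the 9 induced libraries that combined AopACT with Foxo, PntP1 or both, its rank lay between 154 and 857, and in the other 23 fat body libraries it was 6774 or lower. With AopACT+PntP1 its mean of 380 ± 396 CPM per kb (SD, n = 3) was below that of Obp99c, at 1029 ± 436.

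Among induced fat bodies, those in which AopACT was combined with another transgene held less Obp99b than those with AopACT alone. The 9 combined libraries lay between 36.9 and 496 CPM, below both AopACT libraries. In each of the 3 experimental blocks (A, C and D) flies with all 3 transgenes were lowest, and AopACT alone was highest in both blocks that held it. In block D, Obp99b was at 2252 CPM with AopACT, 496 with AopACT+PntP1, 212 with Foxo+AopACT and 194 with all 3 transgenes. In block C it was at 997 with AopACT, 165 with Foxo+AopACT, 112 with AopACT+PntP1 and 77.0 with all 3. In block A, for which no induced fat body library of AopACT alone was analysed, it was at 216 with Foxo+AopACT, 69.2 with AopACT+PntP1 and 36.9 with all 3. The mRNA of aop, whose counts may include the transgene, was at 120.5 and 116 CPM in the induced AopACT fat bodies and between 60.1 and 98.3 CPM in the 9 combined ones. It lay between 43.1 and 78.4 CPM in the 16 uninduced libraries and between 50.8 and 86.1 CPM in the 7 induced ones without AopACT, so the combined libraries overlapped both. The part of the level of aop in that of Obp99b was not tested.

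Because Obp99b is known from male fat body, transcripts of males were looked for. Of 12 names of male-specific and accessory gland transcripts listed, the dosage compensation RNA roX1 alone was found in the fat body table. It exceeded 10 CPM in 7 of 34 fat body libraries, between 13.9 and 34.7 CPM. Of these, 5 were not induced AopACT libraries, and they held Obp99b at 1.63 CPM or less. With AopACT, roX1 was at 33.9 CPM in the uninduced library of block A, where Obp99b was at 1.59 CPM, and at 31.9 and 1.59 CPM in the induced libraries, where Obp99b was at 997 and 2252 CPM. The 8 markers of the female fat body summed to between 28098 and 205680 CPM in the 11 induced AopACT libraries and to between 33793 and 273490 CPM in the 8 uninduced ones of the same genotypes. None of the 8 passed for AopACT. With AopACT alone, however, Yp1 was at 18348 and 134150 CPM in uninduced and at 15027 and 17213 CPM in induced fat bodies. Yp3 was at 3335 and 41125 CPM before and at 710 and 1550 CPM after induction. Yp2 overlapped, at 6308 and 77600 CPM before and 3558 and 6347 CPM after. The 5 sensilla markers found, with no row for Orco, Obp83a and Obp83b, summed to between 31.5 and 65.5 CPM in the induced and between 34.4 and 62.3 CPM in the uninduced AopACT fat bodies.

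In the gut Obp99b was higher after induction of AopACT alone and of AopACT+PntP1, at lower levels than in the fat body. With AopACT alone Obp99b was at 0.836, 0 and 0 CPM before induction (2 counts in total) and at 26.9 and 43.7 CPM after (87 and 136 counts), a ratio of 145 (95% exact interval 39.6 to 1203). With AopACT+PntP1 it was at 0 counts in all 3 uninduced guts and at 4.39 and 2.96 CPM after induction. The ratio was 13.9 against a floor of 3 uninduced counts over the group, and its 95% exact lower limit without that floor was 10.1. With Foxo+AopACT the groups overlapped, at 0, 4.71 and 1.22 CPM before and 3.26 and 4.19 CPM after induction, and the ratio was 2.37 (1.14 to 5.07). Of the 14 uninduced counts, 11 came from 1 library. As in the fat body, the intervals cover counting error only and not the spread between pools. With all 3 transgenes Obp99b was at 0 counts in the 3 uninduced guts and at 0, 2.60 and 3.62 CPM after induction, so that these groups overlapped too. In the genotypes without AopACT the 8 induced guts held 9 counts in total. Of all 9270 gut genes tested, 0.291% passed in either direction with AopACT, 0.787% with AopACT+PntP1, 2.13% with Foxo+AopACT and 1.64% with all 3 transgenes.

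The gut level of Obp99b was set beside that of the fat body library by library, since female fat body markers had counts in the guts too. In the 9 pairs of induced AopACT libraries that share a number, each scaled within its table, the gut held a median of 1.94% of the fat body's Obp99b (0 to 3.92%). The same share was 1.55% for Obp99a (0.793 to 9.99%), 1.85% for Obp99c (1.09 to 9.33%) and 1.32% for Yp1 (0.421 to 3.10%). For the other yolk protein genes it was 1.78% for Yp2 (0.463 to 3.50%) and 3.17% for Yp3 (0.995 to 9.61%). It was higher for Obp18a, at 7.09% (2.49 to 12.1%), and lower for Obp57c, at 0.797% (0 to 2.21%), so the share differed between genes of the fat body. In the AopACT pair of block D the shares were 1.94% for Obp99b, 0.793% for Obp99a, 2.57% for Obp99c and 1.35% for Yp1, and in that of block C they were 2.69%, 2.14%, 2.71% and 2.06%. In the same pairs they were 9.84% and 5.70% for Obp18a, 2.49% and 9.61% for Yp3, and 1.96% and 0% for Obp57c, with 10 gut counts or fewer for Obp18a and 2 or fewer for Obp57c. The part of fat body tissue in the gut's Obp99b was not tested.

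None of the 4 other members passed the test on induction in either tissue. By genotype, 0.0% to 0.411% of all genes passed in the fat body and 0.291% to 3.04% in the gut. At such shares, 0 of 4 does not set the members apart from other genes. Obp99a went from 109.8 and 316 CPM in uninduced to 303 and 406 CPM in induced AopACT fat bodies, and these groups overlapped (log2 difference 0.69 ± 0.56 SE, edgeR adjusted p = 1). Its induced and uninduced fat bodies also overlapped in the 3 combinations with AopACT. With Foxo it went from 188, 176 and 184 CPM to 90.4, 49.1 and 149 CPM, a difference of -1.01 ± 0.45 that did not pass (edgeR adjusted p = 0.207). With PntP1 it went from 177 and 164 CPM to 42.3 and 131 CPM (-0.99 ± 0.57, edgeR adjusted p = 1). Over genotypes, the response of Obp99a was higher with AopACT than without by 0.92 ± 0.39, which did not pass over all genes (edgeR adjusted p = 0.461).

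Obp99c, the most abundant of the family, went from 605 and 1061 CPM to 284 and 337 CPM with AopACT alone (-1.48 ± 0.49 SE, edgeR adjusted p = 0.412). The groups did not overlap, but the test across genes was not passed. With Foxo it went from 757, 1113 and 804 CPM to 528, 273 and 639 CPM (-0.90 ± 0.38, edgeR adjusted p = 0.203). With Foxo+PntP1 it went the other way, from 611, 370.3 and 613 CPM to 1091 and 839.7 CPM (0.79 ± 0.43, edgeR adjusted p = 0.833). In the remaining 4 genotypes its groups overlapped. The response was higher with PntP1 than without by 0.999 ± 0.334, which did not pass (edgeR adjusted p = 0.482). It passed without the library fat body Foxo+AopACT+PntP1 uninduced replicate 1 (1.23, edgeR adjusted p = 0.0918).

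**Figure D3:**
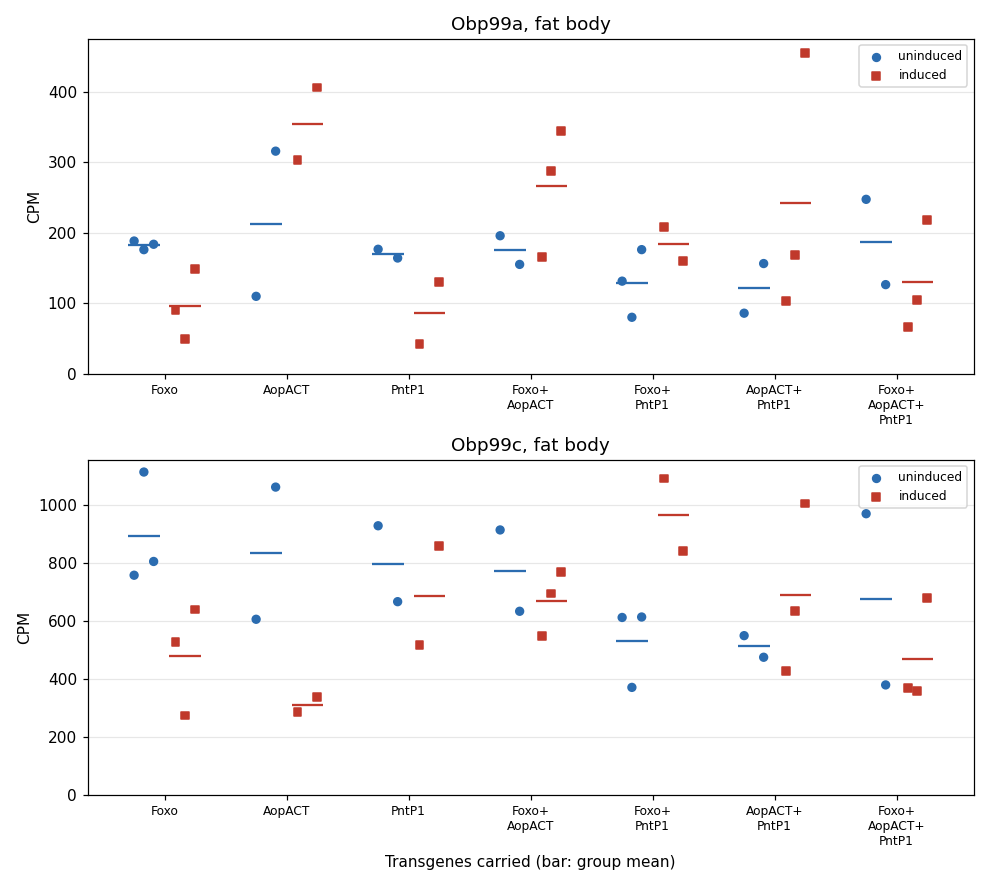
Obp99a and Obp99c in every fat body library (CPM, linear axis from 0) by genotype, circles for uninduced and squares for induced libraries, with a bar at each group mean. Obp99a lies between 42.3 and 454 CPM and Obp99c between 273 and 1113 CPM, and the induced AopACT libraries lie at 303 and 406 CPM for Obp99a and at 284 and 337 CPM for Obp99c.

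Obp56a and Obp44a were low. Obp56a lay between 0.322 and 14.4 CPM in uninduced and between 0.394 and 28.3 CPM in induced fat bodies. Its highest group was AopACT+PntP1 induced, at 10.4, 11.4 and 28.3 CPM against 1.48 and 1.66 CPM uninduced, a log2 difference of 3.34 ± 1.29 that did not pass (edgeR adjusted p = 0.163). It passed in DESeq2 (adjusted p = 0.0719). With all 3 transgenes and with Foxo+PntP1 its induced libraries were below the uninduced ones, and neither difference passed. Obp44a lay between 0.9997 and 14.8 CPM over all fat bodies, with overlapping groups in 6 of 7 genotypes. In the gut Obp99a lay between 0 and 10.4 CPM, Obp99c between 4.30 and 33.4 CPM and Obp44a between 0 and 6.99 CPM. There the induced libraries of Obp99c were below the uninduced ones with AopACT and with Foxo+AopACT, and those of Obp99a below with PntP1, but none of these passed.

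The rest of the family was examined next. In the fat body 15 other Obp genes were tested. With AopACT their log2 differences had a median of -0.08, beside 0.00 over all genes tested, and 0 of 15 passed. They ranged from -1.60 to 8.57, the highest being Obp19c, at 0 counts in both uninduced libraries and at 2.17 and 43.2 CPM in the induced ones, so that its fitted difference is no bound. Obp19c was just as uneven elsewhere, with 0.412 and 2.39 CPM in uninduced PntP1 and 2.43 and 99.6 CPM in uninduced AopACT+PntP1 libraries. In the other 6 genotypes 0 of 15 passed as well, with the median between -0.55 and 0.43, beside 0.0% of all genes with Foxo or Foxo+PntP1 and 0.0103% with PntP1. An unadjusted p under 0.05 was reached by 3 of 15 with AopACT, 4 with AopACT+PntP1 and 0 with Foxo+AopACT. It was also reached by 3 with PntP1, 2 with Foxo, 2 with Foxo+PntP1 and 1 with all 3 transgenes. DESeq2 called 4 of 15 with AopACT+PntP1 (Obp56a, Obp19c, Obp83cd and Obp83ef) and 0 in the other genotypes. In the gut 11 other Obp genes were tested, and 0 passed on induction in any of the 7 genotypes, beside 0.507% of all genes with Foxo, 2.79% with Foxo+PntP1 and 3.04% with PntP1. There an unadjusted p under 0.05 was reached by 0 of 11 with AopACT, Foxo+AopACT and AopACT+PntP1, and by 2 of 11 with PntP1. It was reached by 1 with Foxo, 1 with Foxo+PntP1 and 2 with all 3 transgenes, and DESeq2 called 0 in any genotype. The shares of all genes at an unadjusted p under 0.05 or by DESeq2 are not given here. These counts are therefore not read as a result about the family.

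**Figure D4:**
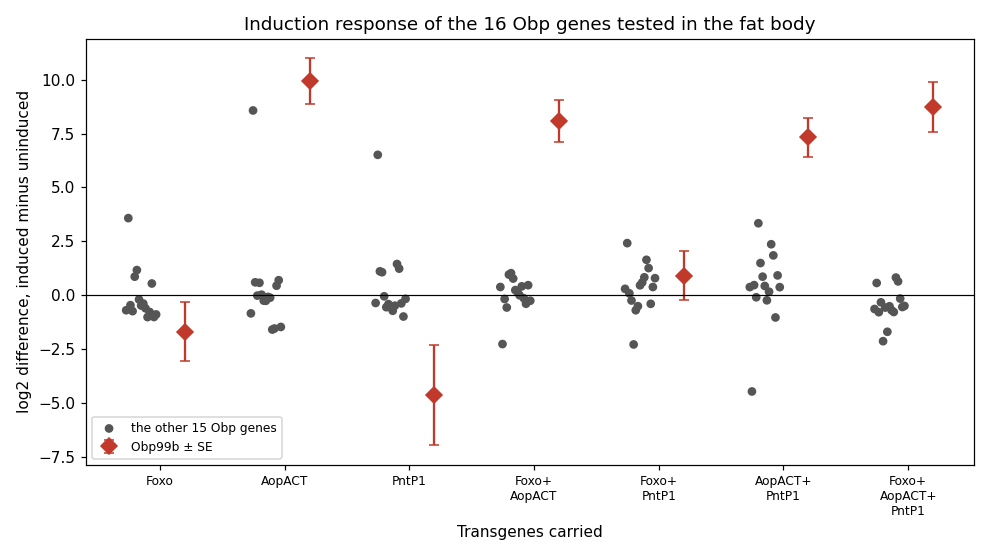
Induction response (log2 difference, induced minus uninduced, from the edgeR fit) of the 16 Obp genes tested in the fat body, by genotype, with Obp99b as diamonds with bars of 1 SE and the other 15 genes as grey points. The bars are derived from the F of the fit and are not read as a test of Obp99b. Obp99b lies between 7.33 and 9.95 in the 4 genotypes with AopACT, and the highest grey points, in AopACT and PntP1, are Obp19c.

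The response of the family was also tested over genotypes. Counts at an unadjusted p and by DESeq2 again have no share of all genes beside them and are not read as a family result. For the mean response to induction over the 7 genotypes, 0 of 15 other Obp genes passed in the fat body (0.277% of all genes) and 0 of 11 in the gut (11.1%), with 2 and 1 at an unadjusted p under 0.05. DESeq2 called 0 and 1, the latter being Obp83b. For the genotype by induction interaction, 0 of 15 and 0 of 11 passed, with 4 and 0 at an unadjusted p under 0.05, beside 0.113% and 2.45% of all genes, while DESeq2 called 3 of 15 in the fat body (Obp99c, Obp83cd and Obp83ef). For AopACT in the response, 0 of 15 and 0 of 11 passed, beside 0.0514% and 2.02% of all genes, and for Foxo 0 of 15 and 0 of 11, beside 0.0% and 0.0431%. An unadjusted p under 0.05 was reached by 1 and 2 genes for AopACT and by 0 and 1 for Foxo, and DESeq2 called 0. For PntP1, 2 of 15 passed in the fat body, both higher, where 0.452% of all genes passed and 0.411% were higher, and 0 of 11 in the gut, beside 4.25% of all genes, with 0 there at an unadjusted p under 0.05 and 0 in DESeq2.

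The 2 genes were Obp83cd and Obp83ef, neighbours on chromosome 3R that belong to the dimer class of the family, with a pair of binding domains. The response of Obp83ef (FBgn0046876, from 6109642 to 6111034) was higher with PntP1 than without by 2.07 ± 0.34 (log2 ± SE, edgeR adjusted p = 0.0114), and that of Obp83cd (FBgn0046878, from 6108134 to 6109733) by 2.30 ± 0.46 (adjusted p = 0.0341). In AopACT+PntP1 fat bodies Obp83ef went from 12.0 and 9.34 CPM to 28.3, 41.9 and 60.0 CPM. In PntP1 fat bodies it went from 24.2 and 22.7 CPM to 37.4 and 58.9 CPM. In those of AopACT alone it went from 12.7 and 28.3 CPM to 9.29 and 6.36 CPM. Induced libraries were thus all above the uninduced ones in the first pair of genotypes and all below them in the last. Obp83cd was likewise higher after induction of AopACT+PntP1 and lower after AopACT, with 32.0, 34.7 and 53.3 CPM in induced AopACT+PntP1 and 5.26 and 5.03 CPM in induced AopACT fat bodies. The genes overlap at their ends on opposite strands, so their counts may share reads and are uncertain as separate values. Both calls were lost without the 7 libraries over 10 CPM of roX1 (differences 2.03 and 2.03, edgeR adjusted p = 0.602 for Obp83ef and 1 for Obp83cd), and that of Obp83cd was lost on leaving out any of 6 single libraries, with differences between 2.09 and 2.23 and edgeR adjusted p between 0.109 and 0.177. Those left out were the uninduced libraries AopACT 2, PntP1 2, Foxo+AopACT 1 and Foxo+AopACT+PntP1 2 and the induced libraries AopACT 3 and PntP1 3, by genotype and replicate.

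**Figure D5:**
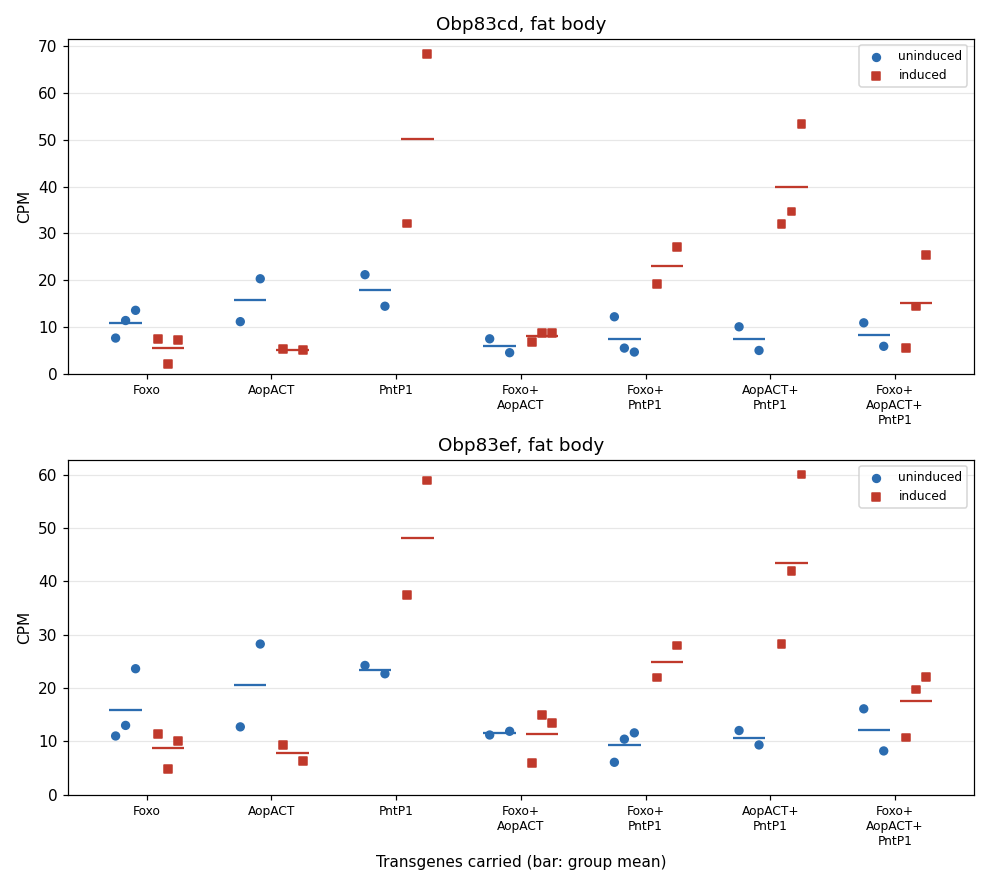
Obp83cd and Obp83ef in every fat body library (CPM, linear axis from 0) by genotype, circles for uninduced and squares for induced libraries, with a bar at each group mean. In PntP1, Foxo+PntP1 and AopACT+PntP1 flies every induced library lies above every uninduced one, and with AopACT alone every induced library lies below.

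The genomic neighbours of Obp99b were examined for a shared response. Within 25 kb of its start, 8 other genes were tested in the fat body and 7 in the gut. In AopACT fat bodies their log2 differences lay between -0.80 and 0.35, and none passed (lowest edgeR adjusted p = 1). In the gut they lay between -0.41 and 0.36 (lowest edgeR adjusted p = 1). Over all genes tested, 0.411% passed with AopACT in the fat body and 0.291% in the gut. At these shares, none passing does not set the neighbours apart from other genes. The nearest of them, CG15506, starts at 29718663 on the plus strand. Its difference in AopACT fat bodies was -0.45 ± 1.15 (SE), and it had no row in the gut table. Over genotypes its fat body response was higher with AopACT than without by 1.45 ± 0.88, which did not pass (edgeR adjusted p = 0.547). Dup99B and the family member Obp99d, which start 1519 and 2391 bases from the start of Obp99b, had no row in either tissue.

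Finally, genes with a pattern like that of Obp99b were sought over the libraries of each tissue. Correlations are across libraries that share genotypes and blocks, and are a description. Over the 34 fat body libraries and 8281 genes, rha had the highest Pearson correlation of log2 CPM with Obp99b (r = 0.93), followed by the glucosidase gene tobi (0.91), the sarcosine dehydrogenase gene Sardh (0.86), the kinase gene Snrk (0.79) and CG8665 (0.76). The spans of rha (25340252 to 25344838) and tobi (25344761 to 25346921) on chromosome 3R overlap, so their counts may share reads. In the 11 induced AopACT libraries tobi lay between 119.7 and 895 CPM, and in the 16 uninduced ones between 6.23 and 74.9 CPM. The lowest correlations were those of lcs (-0.77), whe (-0.73) and CG4408 (-0.65), and lcs lay between 3.15 and 43.8 CPM in induced AopACT and between 21.3 and 663 CPM in uninduced fat bodies. Among the other members r was 0.49 for Obp99a, 0.17 for Obp56a, -0.23 for Obp44a and -0.26 for Obp99c. Over the 36 guts the highest were CG11878 (0.69), Cyt-b5-r (0.66), CG3699 (0.63), DNaseII (0.62) and CG14204 (0.61), the lowest were wake (-0.67), trol (-0.65) and Mrp5 (-0.63), and Obp99a had r = 0.47. By rank correlation 2 of the 5 fat body and 1 of the 5 gut genes were again among the 5 highest, and within groups none of them were.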

How the data were processed

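Whole-number counts per gene were deposited by the authors, 1 table per tissue. Per the study's methods, reads were cleared of duplicates by molecular identifier (Je), aligned to genome release 6 (HISAT2) and counted (featureCounts), and genes with no counted transcript were excluded. The lowest gene total was 36 in the 36 gut libraries and 34 in the 34 fat body libraries, so genes under a mean of 1 count per library also have no row. Of 73 labelled libraries, 70 were analysed. The other 3 were labelled as induced fat bodies, of AopACT, PntP1 and Foxo+PntP1, and had no column in the counts used. The authors' variance-stabilised tables were not used here. Gene symbols and positions came from the Ensembl annotation, matched by identifier (10287 of 10366 gut and 10982 of 11069 fat body genes). Groups came from the labels and blocks from the deposited tables.

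Each tissue was fitted in edgeR 4.0.16 (R 4.3.3) with TMM scaling, filterByExpr (minimum count 10), the 14 groups and the block. The quasi-likelihood test with Benjamini-Hochberg adjustment over all tested genes was read at 0.1 (a false discovery rate of 10%). PntP1, AopACT or Foxo in the response is the mean induction difference of genotypes with that transgene minus that of genotypes without it. The tissues were compared in 35 uninduced libraries and 9610 genes. Log2 CPM used a prior count of 2. Each SE is the absolute log2 difference divided by the square root of its quasi-likelihood F. Intervals of count ratios are exact, conditional on the sum, and cover counting error only. The fits were tested on simulated data. The members and gene lists were chosen with earlier results of these data known. Genes were named by a rule that took the listed members, called Obp genes, the 4 highest per length and the genes most and least like Obp99b. CG15506 and Obp19c were singled out once their values were known. The fits were repeated with DESeq2 1.42.0, RLE scaling, no filter, no replicate block, each genotype alone, and single libraries or those over 10 CPM of roX1 left out, the last chosen after seeing the data. Promoter motifs were not searched.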

Additional observations from a re-analysis of the deposited data

Results flagged for a closer look

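Fat bodies with and without PntP1 differed in the response of 2 Obp genes to induction, by a test of that difference itself. The log2 difference was 2.07 for Obp83ef (edgeR adjusted p = 0.0114) and 2.30 for Obp83cd (edgeR adjusted p = 0.0341). Neither passed without the 7 libraries over 10 CPM of roX1, at 2.03 each. Without the Foxo+PntP1 uninduced library whose pnt level goes against its label both passed, at 2.04 and 2.48 (edgeR adjusted p = 0.0119 and 0.0131). The genes overlap on opposite strands, and what underlies the difference was not tested.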

How the results depend on the processing

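In the fat body, the Obp99b differences of the 4 AopACT genotypes kept their direction under the alternatives run, and leaving out single libraries gave 9.37 to 10.35 for AopACT, 7.26 to 9.81 for Foxo+AopACT, 6.47 to 8.41 for AopACT+PntP1 and 8.30 to 10.74 for all 3 transgenes. In the gut these ranges were 5.17 to 9.69, 0.86 to 2.87, 5.74 to 6.40 and 4.49 to 5.83, the highest of AopACT (9.69) being without gut AopACT uninduced replicate 1, which held both uninduced counts, and those of Foxo+AopACT without its uninduced replicate 2 (2.79) or induced replicate 2 (2.87). With each genotype fitted alone the gut differences were 9.54 for AopACT and 2.53 for Foxo+AopACT, and with DESeq2 that of all 3 transgenes was 4.21. The count of other Obp genes called on induction rose from 0 to 3 in the gut with each genotype fitted alone (Obp56d with Foxo and AopACT+PntP1, Obp19c with PntP1), and in the fat body to 4 with DESeq2 (Obp83ef, Obp83cd, Obp56a and Obp19c, all with AopACT+PntP1), to 1 with each genotype fitted alone and to between 0 and 2 on leaving out single libraries. It was 2 without AopACT uninduced replicate 1 or 2 or Foxo+AopACT uninduced replicate 1 or 2, and 1 without Foxo induced replicate 1 or 2. The interaction count in the fat body was 1 with RLE scaling, 3 with DESeq2 and between 0 and 2 on leaving out single libraries, with 2 without AopACT uninduced replicate 1 and 1 without any of 6 others (replicate 1 of uninduced Foxo+AopACT and AopACT+PntP1, both of uninduced Foxo+AopACT+PntP1, and induced Foxo 1 and 2). DESeq2 called 1 gut gene, Obp83b, for the mean response. The count for PntP1 in the fat body response was 0 without the 7 libraries of highest roX1, an alternative chosen after seeing the data, and between 1 and 3 on leaving out single libraries. With no replicate block the counts of called Obp genes were 0 in each gut comparison, 2 for PntP1 in the fat body, 0 in the other fat body comparisons and 11 between tissues, the planned count between tissues including Obp99b. Pairing tissues by library number as a block also gave 11, but Obp99b was not tested in that fit, so these were not the same 11 genes, and the difference of Obp56a was 2.51 in place of 4.58. The count between tissues lay between 10 and 11 on leaving out single libraries. Counts near 0 limit every gut and uninduced value of Obp99b. Leaving out the only gut Foxo+PntP1 uninduced library gave no value for contrasts over all genotypes. By CPM without length, Obp44a ranked 14 in place of 15 in the fat body and 7 in place of 9 in the gut, and Obp56a 11 in place of 8 in the gut. The promoter motif search was not run.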
